A study of Mus musculus with 11 samples.

Results

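The genes described here are the mouse Zfp genes, the symbols made of Zfp, a number and at most 1 letter, that were expressed in bone marrow derived macrophages. The authors' counts list 42375 named genes, of which 360 have such a symbol, and the 240 taken were selected on their summed raw count, which had to be at least 1000 over the 11 libraries. The other 120 were below that sum, 4 of them with no count in any library. Just inside the limit stood Zfp667, Zfp58 and Zfp273 with summed counts of 1002, 1004 and 1019, and just outside it Zfp651, Zfp420 and Zfp873 with 983, 925 and 881. The summed count chose the genes, so their being expressed is no result. All 240 passed the filter on low counts.

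The libraries came from C57BL/6 mouse macrophages grown from bone marrow, in an M1 or an M0 state, treated for 16 hours with either of a pair of gapmers, chimeric DNA oligonucleotides through which RNase H cuts a complementary transcript. M1 KD cells (2 libraries, numbered 5 and 6) and M0 KD cells (3 libraries, numbered 1, 2 and 4) received the gapmer against the long noncoding RNA MERRICAL. M1 NS cells and M0 NS cells (3 libraries each, numbered 1, 2 and 4) received the gapmer labelled NS, so every group had been given an oligonucleotide. The sources used here give neither the M1 stimulus nor the meaning of the numbers, nor whether replicates came from separate cultures. The p-values therefore reflect only how these libraries scatter, and that scatter may be technical. The level of MERRICAL was not analysed here, since no row has that name. In bulk RNA, fewer cells of a type and less RNA per cell cannot be told apart.

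Most Zfp proteins carry tandem C2H2 zinc fingers, short folds in which a pair of cysteines and a pair of histidines hold a zinc ion and which read DNA bases. Many also carry a KRAB box, which recruits the corepressor TRIM28 and, through it, the histone methyltransferase SETDB1, and such KRAB proteins silence retroelements and guard imprints. The name covers other proteins as well, among them the CCCH protein ZFP36 (tristetraprolin), which binds AU-rich elements in messenger RNAs such as that of tumour necrosis factor and speeds their decay in macrophages.

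A search of the translated coding sequences found at least 1 C2H2 finger in 233 of the 240 genes, with a median of 10 fingers and at most 36. It found none in 7, Zfp36 among them. A KRAB signature was found in 126 genes and not in 114. Divergent boxes escape the search, so the second class still holds some KRAB genes. Genes with the signature had a median of 12 fingers and a transcript GC content of 41.3%, against 7 fingers and 51.7% for those without it. Their level was lower, with a median over genes of 1.46 CPM per kilobase of exon, against 3.28 CPM per kilobase for those without it. CPM, a count scaled to a common library size, was taken with TMM factors throughout. Chromosome 7 held 57 of the genes, chromosome 17 held 37, chromosome 13 held 22 and chromosome 8 held 17. The highest level per kilobase belonged to Zfp36 at 105 CPM, followed by Zfp710 at 19.6, Zfp385a at 18.7, Zfp706 at 18.6 and Zfp263 at 18.4 CPM per kilobase.

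RefSeq promoter windows (GRCm38.p6, 250 bases before to 50 after a start) were at hand for 204 of the 240 genes, 248 windows in all. The letters of the GC box, GGGCGG, read on both strands, stood in 37.1% of the KRAB windows, 62.9% of the other Zfp windows and 35.7% of all 32851 windows. The letters CCAAT stood in 55.3% of the KRAB windows, 40.5% of the other Zfp windows and 37.4% of all windows. A TATAAA was found in 4.84% of the Zfp windows and 13.6% of all windows. The median number of CG pairs in a window was 11 in the KRAB class, 22 in the other Zfp genes and 7 over all windows. A match of letters is a description and not a site that was shown to be bound.

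The 250 bases before the start are shown for 6 genes on which the results below turn: Zfp36, Zfp281 and Zfp811, which were higher in M1 NS than in M0 NS cells, Zfp445 and Zfp207, which were lower in M1 KD than in M1 NS cells, and Zfp874a, which was higher there. Capitals mark, on either strand, GC boxes and CCAAT boxes. They also mark the letters GCGNGGGCG, known from sites of EGR factors. Likewise capitalised are TTCNNNGAA, the letters of sites that STAT factors bind, and TGACGTCA, those of the cyclic AMP response element. No capitals overlap between motifs in these 6 stretches. The same search found no TATAAA in them. It found no AP-1 letters, TGACTCA, and none of the letters searched for interferon response, NF-kappaB and serum response elements.
Zfp36 promoter, chr7:28379229-28379478, minus strand: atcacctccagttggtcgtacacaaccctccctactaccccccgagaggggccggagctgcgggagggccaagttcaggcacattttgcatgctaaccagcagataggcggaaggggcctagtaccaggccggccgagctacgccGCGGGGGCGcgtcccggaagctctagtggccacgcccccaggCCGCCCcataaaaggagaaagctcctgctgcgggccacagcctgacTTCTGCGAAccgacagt
Zfp281 promoter, chr1:136624651-136624900, plus strand: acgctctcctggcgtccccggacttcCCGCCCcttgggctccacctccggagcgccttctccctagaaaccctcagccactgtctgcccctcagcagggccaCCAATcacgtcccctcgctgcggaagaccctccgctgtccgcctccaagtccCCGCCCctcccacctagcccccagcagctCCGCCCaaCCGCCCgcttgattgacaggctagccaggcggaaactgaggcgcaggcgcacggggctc
Zfp811 promoter, chr17:32809932-32810181, minus strand: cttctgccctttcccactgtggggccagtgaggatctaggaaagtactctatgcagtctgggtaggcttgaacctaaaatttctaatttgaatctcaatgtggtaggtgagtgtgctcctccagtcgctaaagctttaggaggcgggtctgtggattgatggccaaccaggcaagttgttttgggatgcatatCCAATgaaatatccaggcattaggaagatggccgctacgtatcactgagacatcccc
Zfp445 promoter, chr9:122866007-122866256, minus strand: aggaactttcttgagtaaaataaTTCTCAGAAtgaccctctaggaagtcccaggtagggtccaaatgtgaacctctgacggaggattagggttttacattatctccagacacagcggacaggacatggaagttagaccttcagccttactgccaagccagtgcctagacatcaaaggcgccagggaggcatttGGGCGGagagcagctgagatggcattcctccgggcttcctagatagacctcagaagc
Zfp207 promoter, chr11:80383029-80383278, plus strand: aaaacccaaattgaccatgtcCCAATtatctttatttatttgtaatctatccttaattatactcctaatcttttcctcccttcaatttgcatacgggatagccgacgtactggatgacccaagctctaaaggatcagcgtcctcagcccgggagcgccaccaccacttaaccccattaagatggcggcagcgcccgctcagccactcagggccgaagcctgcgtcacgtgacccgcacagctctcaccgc
Zfp874a promoter, chr13:67451625-67451874, minus strand: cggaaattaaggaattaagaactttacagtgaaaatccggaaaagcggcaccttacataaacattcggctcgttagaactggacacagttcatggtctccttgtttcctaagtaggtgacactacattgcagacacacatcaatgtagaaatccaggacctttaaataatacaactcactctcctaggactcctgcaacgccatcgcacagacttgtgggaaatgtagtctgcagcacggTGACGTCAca
The stretch of Zfp281 held 4 GC boxes and 19 CG pairs, and that of Zfp36 held 1 GC box, the EGR letters and the STAT letters among 18 CG pairs. The stretches of both KRAB genes Zfp811 and Zfp445 held fewer CG pairs, 4 and 5. The TGACGTCA of Zfp874a began 10 bases before the start, and these letters stood in 4.03% of the Zfp windows and 1.79% of all windows. Over all windows the EGR letters stood in 5.55% and the STAT letters in 8.30%.

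Total counts ran from 30040632 to 43250392 a library. Macrophage markers summed to 14307 to 17426 CPM in M1 KD, 13222 to 15622 in M1 NS, 19204 to 20976 in M0 KD and 25456 to 26791 CPM in M0 NS libraries. Fibroblast and endothelial markers summed to 52.5 to 95.2, 36.1 to 53.9, 8.74 to 23.6 and 12.6 to 35.8 CPM in the same order, with Pdgfra under 1 CPM throughout. M1 markers such as Nos2, Il6 and Il12b summed to 16678 to 23413 CPM in M1 KD, 17823 to 20571 in M1 NS, 130 to 202 in M0 KD and 122 to 238 CPM in M0 NS libraries. Lymphocyte markers stayed at or under 6.12 CPM in sum in every library, and Cd3e, Cd3g, Nkg7 and Ncr1 were under 1 CPM throughout. Neutrophil precursor markers moved with the groups, at 209 to 227 CPM in M1 KD, 242 to 315 in M1 NS, 737 to 761 in M0 KD and 1316 to 2310 CPM in M0 NS. Proliferation markers stood at 413 to 453, 295 to 464, 765 to 956 and 520 to 665 CPM in the same order, and mitochondrial transcripts at 0.519 to 0.720%, 0.485 to 0.886%, 1.27 to 1.44% and 1.01 to 1.13% of counts. Their part in the results was not tested. The M1 NS libraries lay well apart, with a root mean square log2 difference over Zfp genes of 0.751 between replicates 2 and 4. It was 0.493 between replicates 1 and 4 and 0.416 between replicates 1 and 2, so replicate 2 lay nearly as far out as replicate 4. Some results are given with and without replicate 4, and the last section gives the range of calls over each library left out. Of the 240 genes 78 overlap a gene on the opposite strand, and the strand setting of the counting is not given, so their reads cannot be told from those of the partner. How reads shared by near-identical KRAB genes of a cluster were counted is not given either, which limits the values of neighbours such as Zfp874a and Zfp874b.

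As a whole the Zfp genes took a smaller share of the counts in M1 than in M0 libraries. The share was 0.342 and 0.374% in M1 KD, 0.391, 0.362 and 0.416% in M1 NS, 0.517, 0.513 and 0.511% in M0 KD, and 0.501, 0.494 and 0.463% in M0 NS libraries. No M1 library reached the lowest M0 library. After TMM scaling the summed level of the 126 KRAB genes was 841 and 803 CPM in M1 KD, 965, 785 and 1177 in M1 NS, 1328, 1286 and 1260 in M0 KD, and 1210, 1204 and 1007 CPM in M0 NS libraries. The KRAB sum was thus lower in every M1 KD library than in every M0 library, while M1 NS replicate 4 lay above M0 NS replicate 4. The 114 other genes without Zfp36 summed to 2478 and 2821 CPM in M1 KD, 3054 to 3255 in M1 NS, 2900 to 3042 in M0 KD and 2872 to 3180 CPM in M0 NS libraries. Zfp36 alone made up 18.3 and 20.03% of all Zfp CPM in M1 KD, 4.82 to 10.9% in M1 NS, 2.76 to 2.99% in M0 KD and 2.76 to 3.02% in M0 NS libraries. The group mean was highest in M0 KD for 106 genes, in M1 KD for 49, in M0 NS for 45 and in M1 NS for 40, and lowest in M1 KD for 117. For the median gene the highest group mean was 1.97 times the lowest, and for 6 genes it was over 10 times.

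**Figure D1:**
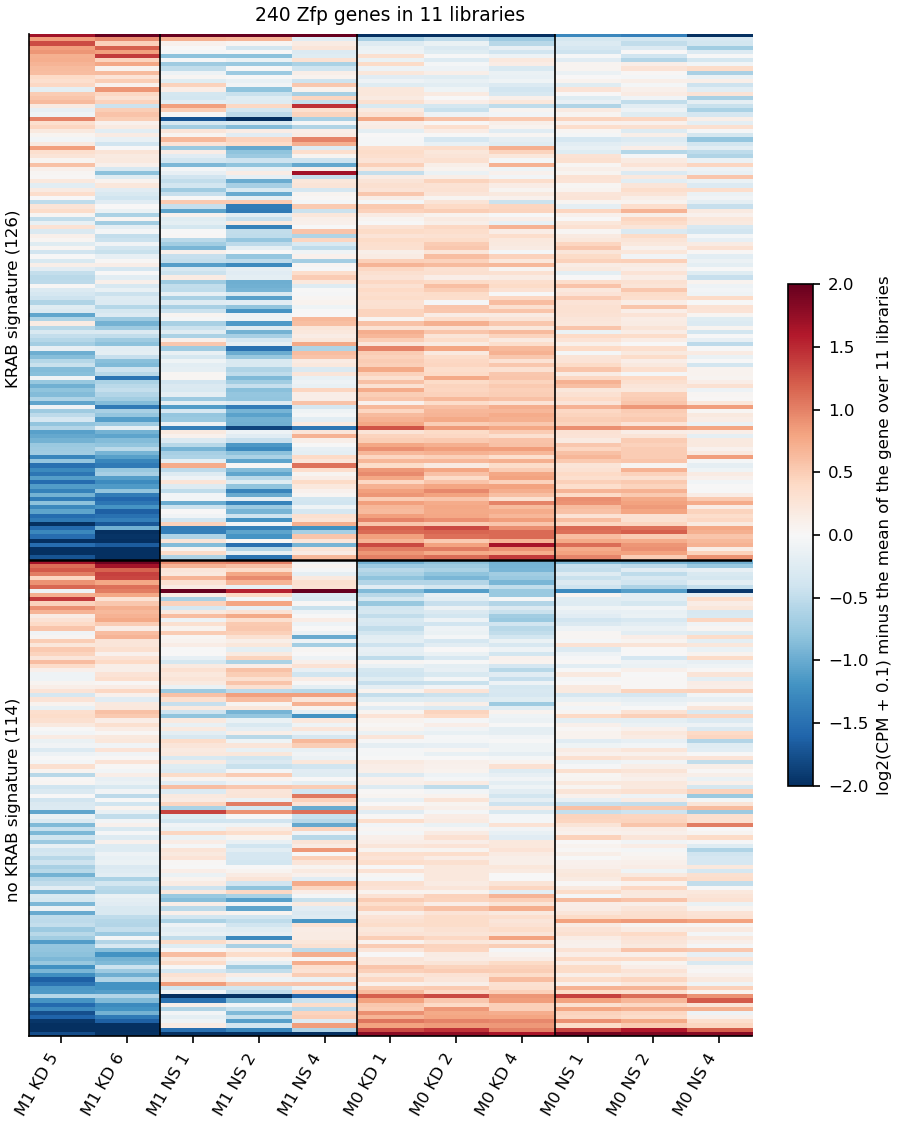
Level of each of the 240 Zfp genes (rows, split into 126 with and 114 without a KRAB signature, sorted within each class by the M1 KD against M0 KD fold change) in each of the 11 libraries (columns), as log2(CPM + 0.1) minus the mean of the gene. Of the 126 KRAB genes 67 had their lowest group mean in M1 KD and 80 their highest in M0 KD.

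M1 NS cells were compared with M0 NS cells, and M1 KD with M0 KD cells, to see how the family differs between the states with each gapmer. The M1 KD libraries share no number with the M0 KD libraries. If the numbers mark a batch, which is not given, state and batch cannot be told apart between M1 KD and M0 KD. More Zfp genes were lower than higher in M1, with most of the excess in the KRAB class. Between M1 NS and M0 NS 104 of 240 changed, 31 up and 73 down, at an adjusted p under 0.05 (edgeR quasi-likelihood test, Benjamini-Hochberg over 15024 genes). Over all genes tested 55.5% were called, 26.9% up and 28.6% down, and of the genes with a summed count of at least 1000 it was 62.3%, with 31.8% up and 30.5% down. Between M1 KD and M0 KD 145 changed, 36 up and 109 down, where 58.3% of all genes were called, 26.9% up and 31.4% down, and of those with at least 1000 counts 66.1%, with 31.2% up and 34.9% down. The CPM ranges did not overlap for 113 genes between M1 NS and M0 NS (61.4% of all genes) and for 191 between M1 KD and M0 KD (74.9% of all genes). The median log2 fold change over the 240 was -0.25 with the NS gapmer and -0.51 with the MERRICAL gapmer, beside -0.04 and -0.11 over all genes. These 2 comparisons share no library. They called 68 genes in common, 65.4% of the first list and 46.9% of the second, of which 62 moved the same way. With 104 and 145 of the 240 called, many shared calls arise without any agreement between the lists. The size of the overlap was not tested.

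**Figure D2:**
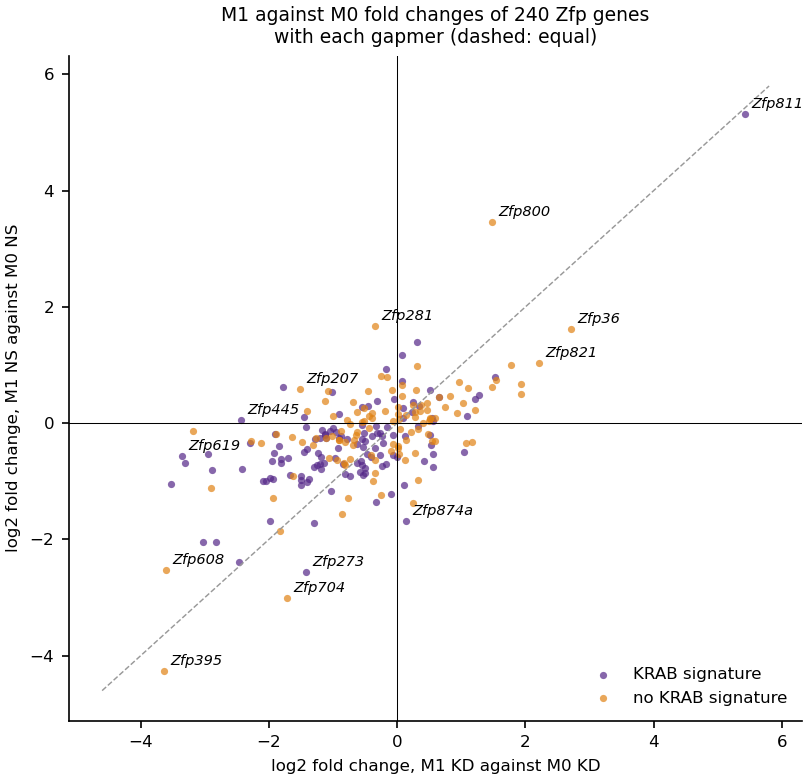
Log2 fold change of each of the 240 Zfp genes between M1 KD and M0 KD (horizontal) and between M1 NS and M0 NS (vertical), coloured by KRAB class, with the dashed line marking equal change. Zfp811 lies at 5.42 and 5.32, Zfp36 at 2.71 and 1.62, and Zfp281 at -0.34 and 1.67.

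In the KRAB class 48 genes fell and 7 rose between M1 NS and M0 NS, with a median of -0.43, while of the other Zfp genes 25 fell and 24 rose, with a median of -0.01. Between M1 KD and M0 KD 66 KRAB genes fell and 12 rose, with a median of -0.68, against 43 down and 24 up among the others, with a median of -0.17. The difference between the classes is a description, with no test. Without M1 NS replicate 4 the first comparison had 70 KRAB genes down and 6 up, and 35 down and 24 up among the others. This omission gave the most calls of any library left out, and the class counts of the other omissions are not shown. Scaling by library size alone moved the median of all genes to -0.42 between M1 NS and M0 NS and to -0.59 between M1 KD and M0 KD, and the Zfp calls then split into 9 up and 140 down and into 18 up and 155 down. Upper-quartile factors moved the first median to -0.16 and gave 21 up and 99 down. Relative to the median of all genes the KRAB median lay at -0.40 with TMM and -0.38 with library size for M1 NS, and at -0.57 with both for M1 KD. The KRAB median lay below that of all genes under each of these scalings. A scaling factor shifts all genes of a library alike, so this distance could hardly change and is no check on the result.

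**Figure D3:**
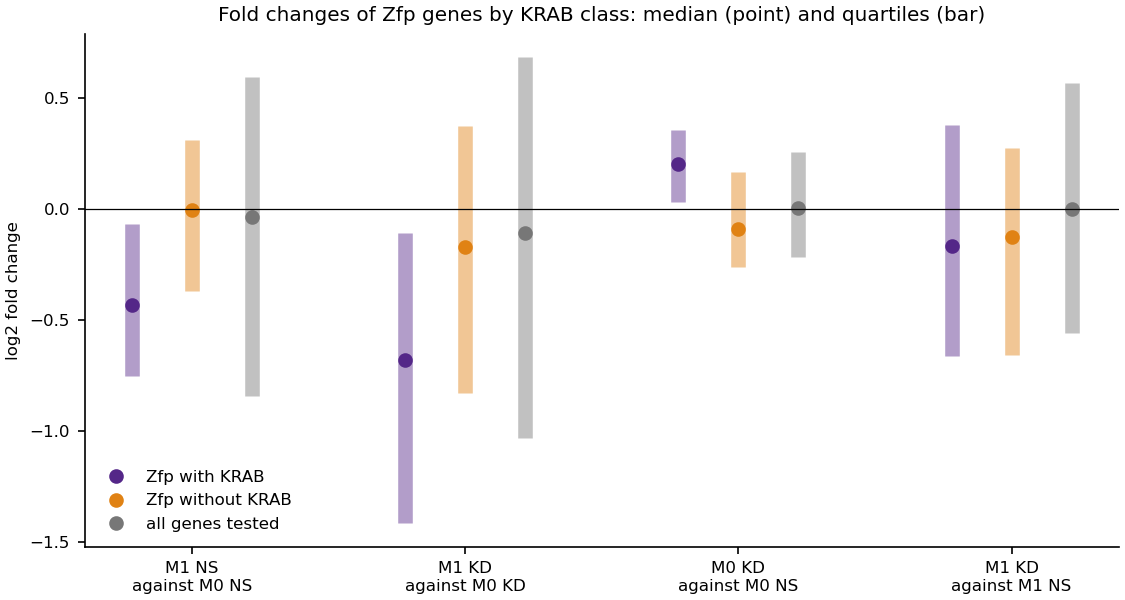
Log2 fold changes in 4 comparisons for the 126 Zfp genes with a KRAB signature, the 114 without and all 15024 genes tested, with the median as a point and the quartiles as a bar. The KRAB median is -0.43 and -0.68 in the 2 comparisons of M1 with M0, 0.20 between M0 KD and M0 NS, and -0.17 between M1 KD and M1 NS.

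Fold changes of all genes rose with GC content between M1 KD and M0 KD. Between M1 NS and M0 NS they differed little and ran the other way. The annotated genes tested were split into 4 classes of equal size by the GC content of their transcripts, and 124 of the 240 Zfp genes, 93 of them KRAB genes, fell in the class with the lowest GC (27.5 to 45.6%). Between M1 KD and M0 KD the medians of all genes over these classes were -0.43, -0.22, 0.04 and 0.23 from low to high GC, and those of the Zfp genes -0.88, -0.39, -0.06 and 0.32. Between M1 NS and M0 NS the medians of all genes were 0.01, 0.00, -0.06 and -0.13, and those of the Zfp genes -0.33, -0.15, -0.15 and -0.01. In the lowest GC class of that comparison 31 of 93 KRAB genes fell and 5 rose, while over all genes there 892 of 3679 fell and 1022 rose. With a smooth trend in transcript length and GC content removed from each library, 66 KRAB genes fell and 13 rose between M1 NS and M0 NS, and 57 fell and 23 rose between M1 KD and M0 KD, with medians of -0.48 and -0.34. The part of base composition in single genes was not tested.

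**Figure D4:**
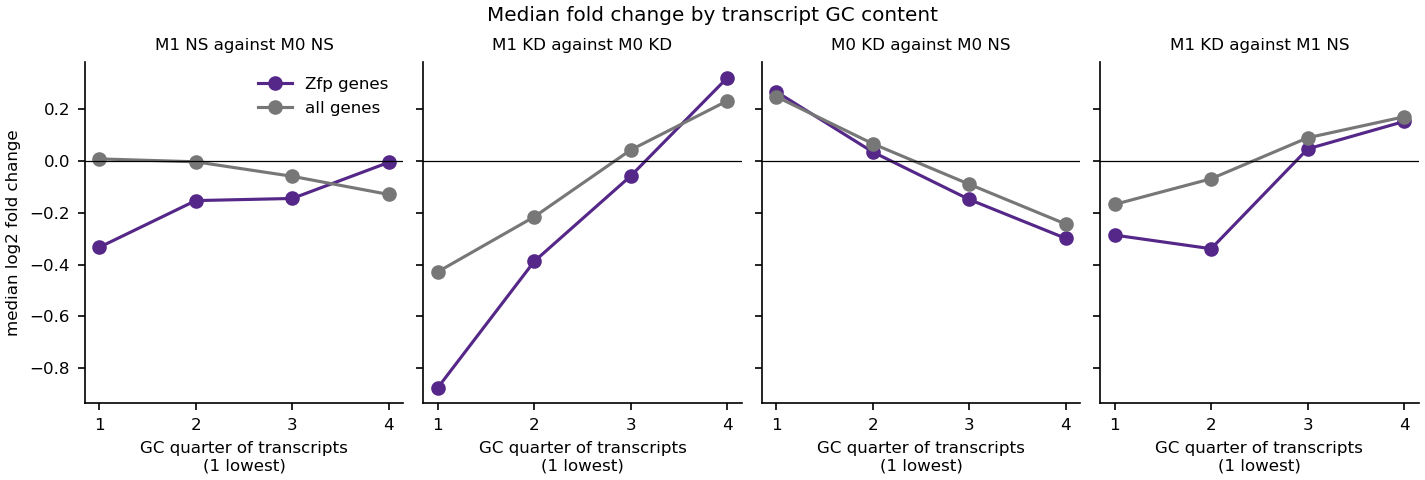
Median log2 fold change of the Zfp genes and of all genes in 4 classes of rising transcript GC content, in 4 comparisons. Between M0 KD and M0 NS both lines fall with GC, for Zfp genes from 0.27 in the lowest class to -0.30 in the highest, and between M1 KD and M0 KD both rise.

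Among RNA-binding and ribosome-linked members, Zfp36 was the gene with the highest level of all. It stood at 745 and 908 CPM in M1 KD, 454, 468 and 222 in M1 NS, 123, 133 and 122 in M0 KD, and 128, 124 and 121 CPM in M0 NS libraries. The M0 libraries of both gapmers lay close together, all M1 libraries lay above them, and M1 KD lay above M1 NS without overlap. Zfp36 rose by a log2 fold change of 2.71 between M1 KD and M0 KD (SE 0.26, adjusted p = 2.93e-06, edgeR), by 1.62 between M1 NS and M0 NS (SE 0.23, adjusted p = 8.78e-05) and by 1.12 between M1 KD and M1 NS (SE 0.25, adjusted p = 0.00479). The knockdown effect was larger in M1 than in M0 by 1.10 (SE 0.34, adjusted p = 0.0320), a call that was lost with the length and GC trend removed (adjusted p = 0.0566), without M1 KD replicate 6 (adjusted p = 0.102) and without any 1 of the M0 libraries (adjusted p = 0.0524 to 0.0695). Zfp36 lies at chr7:28376784-28380253 on GRCm38 and overlaps the antisense gene Gm44710, and the RefSeq start before which its 250 bases were taken lies inside this GENCODE span.

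Between M1 and M0 the paralogues of Zfp36 fell. Zfp36l1, whose protein binds the same AU-rich elements, stood at 5.32 and 9.51 CPM in M1 KD, 20.6, 23.3 and 14 in M1 NS, 97.8, 107 and 106 in M0 KD, and 133, 138 and 105 CPM in M0 NS libraries. It fell by a log2 fold change of -3.81 between M1 KD and M0 KD, -2.70 between M1 NS and M0 NS and -1.39 between M1 KD and M1 NS (adjusted p = 4.55e-07, 1.01e-06 and 0.00155, edgeR). Zfp36l2 fell by -0.83 between M1 KD and M0 KD and by -1.74 between M1 NS and M0 NS, and rose by 0.75 between M1 KD and M1 NS (adjusted p = 0.00163, 2.20e-06 and 0.00526). Of 29 genes of the ZFP36 family and of messenger RNA decay that were tested, 7 rose and 11 fell between M1 KD and M1 NS, and 11 rose and 6 fell between M1 NS and M0 NS. Over all genes tested 17.6% rose and 19.2% fell between M1 KD and M1 NS, and 26.9% rose and 28.6% fell between M1 NS and M0 NS. Cnot1, the scaffold of the deadenylase complex that ZFP36 recruits, fell by -1.08 between M1 KD and M1 NS (SE 0.18, adjusted p = 0.000747). Dusp1, a phosphatase that acts on the p38 pathway which controls ZFP36, rose by 3.42 between M1 KD and M0 KD and by 2.82 between M1 NS and M0 NS, and Zc3h12a, the ribonuclease Regnase-1, by 2.56 and 2.43 (adjusted p from 1.17e-07 to 2.27e-07).

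Zfp207 was lower with the MERRICAL gapmer in M1. Its protein, also called BuGZ, binds microtubules and the checkpoint protein BUB3 at the mitotic spindle. Zfp207 stood at 29.2 and 35.3 CPM in M1 KD, 145, 119 and 121 in M1 NS, 86.2, 88.7 and 101 in M0 KD, and 86.2, 94.2 and 76.4 CPM in M0 NS libraries. M1 NS was thus the highest group and M1 KD the lowest, with no overlap with any other group. Zfp207 fell by a log2 fold change of -1.99 between M1 KD and M1 NS (SE 0.16, adjusted p = 7.84e-06, edgeR) and by -1.51 between M1 KD and M0 KD (SE 0.16, adjusted p = 6.14e-06), while it rose by 0.58 between M1 NS and M0 NS (SE 0.13, adjusted p = 0.00243). The rise was lost with library size scaling (adjusted p = 0.195). Between M0 KD and M0 NS the value was 0.10 (adjusted p = 0.736), and the effects in M1 and M0 differed by -2.09 (SE 0.20, adjusted p = 7.74e-05).

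Of the 10 members in the RNA-binding list 1 rose and 5 fell between M1 KD and M1 NS (36.8% of all genes called). Between M1 KD and M0 KD 3 rose and 6 fell. There 58.3% of all genes were called, 26.9% up and 31.4% down, and 66.1% of those with a summed count of at least 1000. Zfp830, a nuclear protein linked to splicing, stood at 7.35 and 10.6 CPM in M1 KD, 21, 18.3 and 18.8 in M1 NS, 16.8 to 18.9 in M0 KD and 17.2 to 19.1 CPM in M0 NS libraries. Only its M1 KD libraries were apart, and it fell by -1.11 between M1 KD and M1 NS (SE 0.17, adjusted p = 0.000406, edgeR). Zfp385a, an RNA-binding partner of p53, had its highest levels in M0 NS, with 30.7 and 29.7 CPM in M1 KD, 28.3, 30.9 and 19.6 in M1 NS, 54.9, 56.6 and 52.2 in M0 KD, and 76.7, 79.0 and 76.8 CPM in M0 NS libraries. It fell by -1.56 between M1 NS and M0 NS and by -0.85 between M1 KD and M0 KD (adjusted p = 2.90e-06 and 0.000843), and its value of -0.51 between M0 KD and M0 NS did not pass (adjusted p = 0.261) although those libraries did not overlap.

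Zfp106, an RNA-binding protein needed by motor neurons in mice, fell by -0.91 between M1 KD and M0 KD (adjusted p = 0.000466) and by -0.60 between M1 KD and M1 NS (adjusted p = 0.0127), the second call lost without M1 KD replicate 6 (adjusted p = 0.0855) and with the trend removed (adjusted p = 0.0894). Zfp326, part of a complex that links RNA polymerase to splicing, and Zfp318, needed in B cells for IgD, fell in the same 2 comparisons, by -1.32 and -0.68 and by -0.78 and -0.62 (edgeR adjusted p = 0.000233, 0.0253, 0.00359 and 0.0232). Between M1 KD and M1 NS both calls were lost without M1 KD replicate 5 (adjusted p = 0.147 and 0.219), and the fall of Zfp318 between M1 KD and M0 KD was lost with the trend removed (adjusted p = 0.714). Zfp622, which serves the maturation of the large ribosomal subunit, and Zfp346, which binds double-stranded RNA, rose by 0.51 and 0.59 between M1 KD and M0 KD, but with library size scaling neither call held (adjusted p = 0.890 and 0.562), nor did they without M1 KD replicate 5 (adjusted p = 0.109 and 0.0504). The ribosome collision sensor Zfp598 stood at 26.9 and 28.4 CPM in M1 KD, 24.3 to 30.4 in M1 NS, 24.6 to 25.4 in M0 KD and 29.3 to 36.7 CPM in M0 NS libraries and passed in no comparison.

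Of the ubiquitin and SUMO ligases Zfp91, which acts in noncanonical NF-kappaB signalling, passed in no comparison, with 130 and 161 CPM in M1 KD, 110 to 157 in M1 NS, 139 to 151 in M0 KD and 95.1 to 127 CPM in M0 NS libraries. Its groups overlapped between M1 and M0 with either gapmer. The SUMO ligase gene Zfp451 had 18.3 and 17 CPM in M1 KD, 23.7, 19.3 and 31.4 in M1 NS, 31.3 to 33.1 in M0 KD and 26.2 to 28.7 CPM in M0 NS libraries. It fell by -0.88 between M1 KD and M0 KD (SE 0.18, adjusted p = 0.00106, edgeR), a call that was lost with the length and GC trend removed (adjusted p = 0.268).

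Of 13 DNA-binding members with mapped roles none rose and 5 fell between M1 KD and M1 NS, and 3 rose and 3 fell between M1 NS and M0 NS. Over all genes 36.8% were called in the first of these comparisons and 55.5% in the second. Zfp281, which binds GC-rich promoters and restrains the pluripotency gene Nanog in mouse stem cells, was the member of this list that moved furthest. It stood at 22.8 and 42.4 CPM in M1 KD, 120, 87.8 and 101 in M1 NS, 40.0, 45.5 and 38.0 in M0 KD, and 33.6, 35 and 28.4 CPM in M0 NS libraries. M1 NS alone was high, and of the M1 KD libraries 1 lay below and 1 within the range of M0 values. Zfp281 rose by 1.67 between M1 NS and M0 NS (SE 0.20, adjusted p = 2.26e-05, edgeR) and fell by -1.66 between M1 KD and M1 NS (SE 0.24, adjusted p = 0.000278). Both calls held under every setting run.

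Zfp217, a partner of the CoREST and CtBP corepressors, was lowest in M1 KD. Its levels were 25.7 and 24.8 CPM in M1 KD, 43.7, 43.9 and 51.8 in M1 NS, 80.2, 82.0 and 71.9 in M0 KD, and 92.1, 90.5 and 78.7 CPM in M0 NS libraries. The fall was -1.63 between M1 KD and M0 KD, -0.91 between M1 NS and M0 NS and -0.88 between M1 KD and M1 NS (edgeR adjusted p = 1.13e-06, 3.12e-05 and 0.000398), and these calls held under every setting run. Zfp263, whose human counterpart binds many promoters, had 61.9 and 65.9 CPM in M1 KD, 126, 119 and 116 in M1 NS, 68.4, 57.6 and 77.2 in M0 KD, and 84.5, 94.1 and 64.2 CPM in M0 NS libraries. It rose by 0.57 between M1 NS and M0 NS (adjusted p = 0.00632; 0.284 with library size scaling) and fell by -0.91 between M1 KD and M1 NS (adjusted p = 0.00173). Zfp143, a promoter factor also found at the anchors of chromatin loops, rose by 0.46 between M1 NS and M0 NS (adjusted p = 0.00543; 0.613 with library size scaling). Zfp148 and Zfp191 fell by -0.44 and -0.54 between M1 KD and M0 KD, and with the trend removed their values were 0.42 and 0.02. Zfp292, Zfp335, Zfp384 and Zfp219 passed in no comparison.

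Of 6 chromatin complex members 1 rose and 3 fell between M1 KD and M1 NS, where 17.6% of all genes rose and 19.2% fell. Zfp687, which forms a complex with ZFP592 and ZMYND8, had 9.60 and 12.1 CPM in M1 KD, 21, 24.3 and 19.98 in M1 NS, 19.2, 19.1 and 15.8 in M0 KD, and 23.4, 21.1 and 21.1 CPM in M0 NS libraries. It fell by -1.0 between M1 KD and M1 NS (SE 0.16, adjusted p = 0.000602, edgeR). Its partner Zfp592 went up, with 76.6 and 74.8 CPM in M1 KD, 54.9, 58.5 and 44.6 in M1 NS, 37.3, 39.1 and 35.2 in M0 KD, and 42.6, 43.1 and 38.0 CPM in M0 NS libraries. The rise of Zfp592 was 1.03 between M1 KD and M0 KD (SE 0.13, adjusted p = 3.23e-05) and 0.52 between M1 KD and M1 NS (SE 0.13, adjusted p = 0.00865). The second call was at adjusted p = 0.0510 without M1 KD replicate 5. Zfp687 overlaps Pi4kb on the opposite strand. Zfp518b, whose human counterpart binds the H3K9 methyltransferase G9a, and its relative Zfp518a fell by -0.53 and -1.25 between M1 KD and M1 NS (adjusted p = 0.0456 and 0.0148), and both calls were lost without M1 KD replicate 5 (adjusted p = 0.251 and 0.145).

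Of 4 expressed members known for silencing retroelements or keeping imprints, 3 fell between M1 KD and M1 NS and 3 between M1 KD and M0 KD, and 1 rose between M1 NS and M0 NS. Over all genes 19.2% fell, 31.4% fell and 26.9% rose in the same comparisons. Zfp445, which keeps imprinted methylation in mice and humans, stood at 14.5 and 19.4 CPM in M1 KD, 87.1, 60.4 and 103 in M1 NS, 92.9, 89.7 and 93.1 in M0 KD, and 85.0, 85.0 and 72.4 CPM in M0 NS libraries. The 9 other libraries all lay above 60 CPM, and the M1 KD libraries were far below them. Zfp445 fell by -2.31 between M1 KD and M1 NS (SE 0.22, adjusted p = 2.17e-05, edgeR) and by -2.44 between M1 KD and M0 KD (SE 0.22, adjusted p = 2.02e-06), while M1 NS and M0 NS differed by 0.05 (adjusted p = 0.828). The gene lies at chr9:122844529-122866006.

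Zfp809, which silences endogenous retroviruses in mouse embryonic cells, was also lowest in M1 KD, with 4.56 and 5.05 CPM in M1 KD, 11.3, 9.15 and 11.6 in M1 NS, 11.8, 12.8 and 14 in M0 KD, and 12, 10.9 and 10.7 CPM in M0 NS libraries. It fell by -1.15 between M1 KD and M1 NS (SE 0.17, adjusted p = 0.000306) and by -1.42 between M1 KD and M0 KD (SE 0.17, adjusted p = 1.66e-05). Zfp568, which represses a placental transcript of Igf2 in mice, rose by 0.72 between M1 NS and M0 NS (adjusted p = 0.00314; 0.127 with library size scaling). Zfp932, which targets endogenous retroviruses, fell by -1.05 between M1 KD and M0 KD (adjusted p = 0.0407; up to 0.264 when a library was left out).

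The corepressor machinery that KRAB proteins recruit was lower in part. Of 28 genes of that list none rose and 12 fell between M1 KD and M1 NS, and 3 rose and 15 fell between M1 KD and M0 KD, where over all genes 19.2% and 31.4% fell. Trim28, the corepressor itself, had 96.6 and 95.5 CPM in M1 KD, 80.8 to 127 in M1 NS, 81.8 to 91.3 in M0 KD and 91.0 to 106 CPM in M0 NS libraries, and passed in none of the 5 tests. Setdb1 had 27.6 and 41.1 CPM in M1 KD, 57.7, 53.6 and 43.6 in M1 NS, 63.2 to 70.5 in M0 KD and 62.5 to 63.6 CPM in M0 NS libraries, and fell by -0.59 between M1 KD and M1 NS (SE 0.17, adjusted p = 0.0181, edgeR). Dnmt1, the maintenance DNA methyltransferase, fell by -1.03 between M1 KD and M1 NS and by -1.89 between M1 KD and M0 KD (adjusted p = 0.000132 and 3.03e-07), and Chd4, the remodeller of the NuRD complex, by -1.19 between M1 KD and M1 NS (adjusted p = 9.57e-05). Hdac1 rose by 1.23 between M1 NS and M0 NS and fell by -1.23 between M1 KD and M1 NS (adjusted p = 1.26e-05 and 0.000160), 2 comparisons that share the M1 NS libraries.

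The largest positive log2 fold change between M1 and M0 with either gapmer was that of the KRAB gene Zfp811, which encodes 13 fingers. It stood at 4.69 and 6.22 CPM in M1 KD, 16.9, 10.1 and 18.5 in M1 NS, 0.0514, 0.169 and 0.145 in M0 KD, and 0.512, 0.481 and 0.143 CPM in M0 NS libraries. The M0 values rest on 2 to 22 counts a library and the M1 values on 170 to 646, so Zfp811 reached the summed count of 1000 through its M1 libraries and had to differ between the states. Its log2 fold changes of 5.32 between M1 NS and M0 NS and 5.42 between M1 KD and M0 KD are therefore given as a description, with no test. The fall of -1.48 between M1 KD and M1 NS is a description too. Most of the summed count came from the 604, 255 and 646 counts of the M1 NS libraries. Zfp811 lies at chr17:32795676-32809931.

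Zfp800, a C2H2 protein gene without a KRAB signature, stood at 42.8 and 92.5 CPM in M1 KD, 211, 133 and 226 in M1 NS, 24.6, 21.1 and 27.0 in M0 KD, and 18.9, 21 and 11.9 CPM in M0 NS libraries. The M1 and M0 libraries did not overlap, and M1 KD lay between M0 and M1 NS. The gene overlaps 6530409C15Rik on the opposite strand. Zfp800 rose by 3.46 between M1 NS and M0 NS (SE 0.32, adjusted p = 2.05e-06) and by 1.48 between M1 KD and M0 KD (SE 0.32, adjusted p = 0.00162), the second at adjusted p = 0.0506 without M1 KD replicate 6. It fell by -1.49 between M1 KD and M1 NS (adjusted p = 0.00485; 0.0503 without M1 KD replicate 5). Zfp719 and Zfp945, 2 KRAB genes, rose by 1.40 and 1.17 between M1 NS and M0 NS (adjusted p = 0.000640 and 0.000109). With the MERRICAL gapmer the values of Zfp719 and Zfp945 between M1 and M0 were 0.31 and 0.08 and did not pass (adjusted p = 0.388 and 0.746).

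The deepest falls between M1 NS and M0 NS belonged to Zfp395 and Zfp704, which encode related proteins. Zfp395 stood at 3.62 and 3.15 CPM in M1 KD, 2.44, 2.77 and 2.06 in M1 NS, 44.3, 43.4 and 39.5 in M0 KD, and 48.4, 46.7 and 44.8 CPM in M0 NS libraries. Every M0 library lay above 39 CPM and every M1 library below 4 CPM. The fall was -4.27 between M1 NS and M0 NS (SE 0.14, adjusted p = 1.12e-09, edgeR) and -3.64 between M1 KD and M0 KD (SE 0.16, adjusted p = 1.17e-08). Zfp704 had 15.8 and 15.5 CPM in M1 KD, 5.49, 5.86 and 7.80 in M1 NS, 54.0, 58.3 and 43 in M0 KD, and 60.4, 50.8 and 43.7 CPM in M0 NS libraries. Zfp704 fell by -3.01 between M1 NS and M0 NS (SE 0.18, adjusted p = 7.44e-08, edgeR) and was higher in M1 KD than in M1 NS by 1.29 (SE 0.19, adjusted p = 0.000352). Both genes overlap antisense genes, Gm48449 for Zfp395 and C030034L19Rik and Gm38001 for Zfp704.

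Zfp608, the paralogue of Zfp609, fell by -2.52 between M1 NS and M0 NS and by -3.61 between M1 KD and M0 KD. It had 1.45 and 1.28 CPM in M1 KD, 2.35 to 4.44 in M1 NS, 13.9 to 18.9 in M0 KD and 16.1 to 21.1 CPM in M0 NS libraries. The KRAB genes Zfp273, Zfp810 and Zfp111 fell by -2.56, -2.39 and -2.05 between M1 NS and M0 NS. Between M1 KD and M0 KD they fell by -1.42, -2.47 and -2.82. The KRAB gene Zfp760 fell by -3.52 between M1 KD and M0 KD, with 0.713 and 0.293 CPM in M1 KD and 5.30 to 6.92 CPM in M0 KD libraries. Zfp608, Zfp273, Zfp810, Zfp111 and Zfp760 reached the limit on the summed count through their M0 libraries. Their falls are therefore a description, with no test. Among rises between M1 KD and M0 KD, that of Zfp821 followed that of Zfp36. Its levels were 59.2 and 87.2 CPM in M1 KD, 43.8, 40.9 and 28.3 in M1 NS, 16.4, 16.7 and 14.2 in M0 KD, and 19.9, 19.0 and 16.3 CPM in M0 NS libraries. The rise of Zfp821 was 2.21 with the MERRICAL gapmer (SE 0.20, adjusted p = 2.28e-06) and 1.03 with the NS gapmer (SE 0.18, adjusted p = 0.000469). Zfp213, Zfp523 (related to Zfp143) and Zfp513 followed with 1.93, 1.93 and 1.78 between M1 KD and M0 KD (adjusted p = 6.45e-06, 1.88e-05 and 5.18e-05), and their transcripts have GC contents of 59.5, 61.2 and 61.1%.

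M1 KD cells were compared with M1 NS cells to see what the gapmer against MERRICAL did in M1 macrophages. In this comparison 106 of 240 Zfp genes changed, 37 up and 69 down (36.8% of all genes called, 17.6% up and 19.2% down, and 43.9%, 19.6% and 24.3% of those with at least 1000 counts), with a median of -0.15 beside 0.00 over all genes. The CPM ranges did not overlap for 130, against 52.4% of all genes. Of the KRAB genes 17 rose and 33 fell, and of the others 20 rose and 36 fell. The balance of rises and falls was not stable, since without M1 NS replicate 4 it was 53 up and 54 down, with upper-quartile factors, which moved the median of all genes to 0.15, it was 47 and 48, and with the length and GC trend removed 51 and 59. A fit of the M1 KD and M1 NS libraries alone called 22 up and 30 down, and without M1 KD replicate 5 the count was 22 up and 38 down. Single genes stood out more clearly than the family.

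The falls were led by Zfp619, Zfp329, Zfp866, Zfp445, Zfp709 and Zfp160, all with M1 KD libraries below every other library. Zfp619, a KRAB gene that encodes 33 fingers, stood at 0.741 and 0.658 CPM in M1 KD, 5.35, 3.60 and 4.59 in M1 NS, 7.69, 6.99 and 6.96 in M0 KD, and 7.22, 7.21 and 5.69 CPM in M0 NS libraries. It fell by -2.68 between M1 KD and M1 NS (SE 0.26, adjusted p = 2.20e-05, edgeR). Zfp866, a KRAB gene of a chromosome 8 cluster that overlaps Atp13a1 on the opposite strand, had 2.5 and 2.19 CPM in M1 KD, 14.1, 12 and 14 in M1 NS, 16.9 to 18.9 in M0 KD and 18.5 to 19.9 CPM in M0 NS libraries. The fall of Zfp866 was -2.5 (SE 0.16, adjusted p = 3.56e-06). Zfp329 and Zfp709 fell by -2.64 and -2.26 (adjusted p = 0.000130 and 0.000173), and Zfp160 fell by -2.16 (adjusted p = 0.000135), with 4.77 and 5.08 CPM in M1 KD against 13.9 to 29.0 CPM in M1 NS libraries. The 6 calls held under every setting run.

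The rises were led by Zfp874a, Zfp667, Zfp949, Zfp362, Zfp14 and Zfp775. Zfp874a stood at 17 and 12 CPM in M1 KD, 2.49, 2.06 and 5.39 in M1 NS, 14.4, 12.8 and 12.3 in M0 KD, and 11.6, 11.5 and 9.26 CPM in M0 NS libraries. The M1 NS libraries alone were low, and of the M1 KD libraries 1 lay above and 1 within the range of M0 values. Zfp874a rose by 2.12 between M1 KD and M1 NS (SE 0.32, adjusted p = 0.000406, edgeR) and fell by -1.69 between M1 NS and M0 NS (SE 0.30, adjusted p = 0.000398), while M1 KD and M0 KD differed by 0.14 (adjusted p = 0.718). Zfp362, related to Zfp384, was also lowest in M1 NS, with 23.5 and 26.3 CPM in M1 KD, 10.3, 10.5 and 7.83 in M1 NS, 21.9, 23.9 and 17 in M0 KD, and 24.0, 25.2 and 24.6 CPM in M0 NS libraries. It rose by 1.38 between M1 KD and M1 NS (SE 0.17, adjusted p = 0.000116). Zfp949, a KRAB gene, rose by 1.43 (adjusted p = 5.76e-05). The values of the KRAB gene Zfp14 and of Zfp667 were 1.33 and 1.75. Their summed counts of 1115 and 1002 reached the limit through their M1 KD libraries, so both values are a description, with no test. Zfp775 had 10.3 and 4.72 CPM in M1 KD, 2.41 to 3.68 in M1 NS, 2.98 to 3.77 in M0 KD and 3.24 to 4.90 CPM in M0 NS libraries, and its rise of 1.31 (adjusted p = 0.00789) was lost without M1 KD replicate 5 (adjusted p = 0.195).

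**Figure D5:**
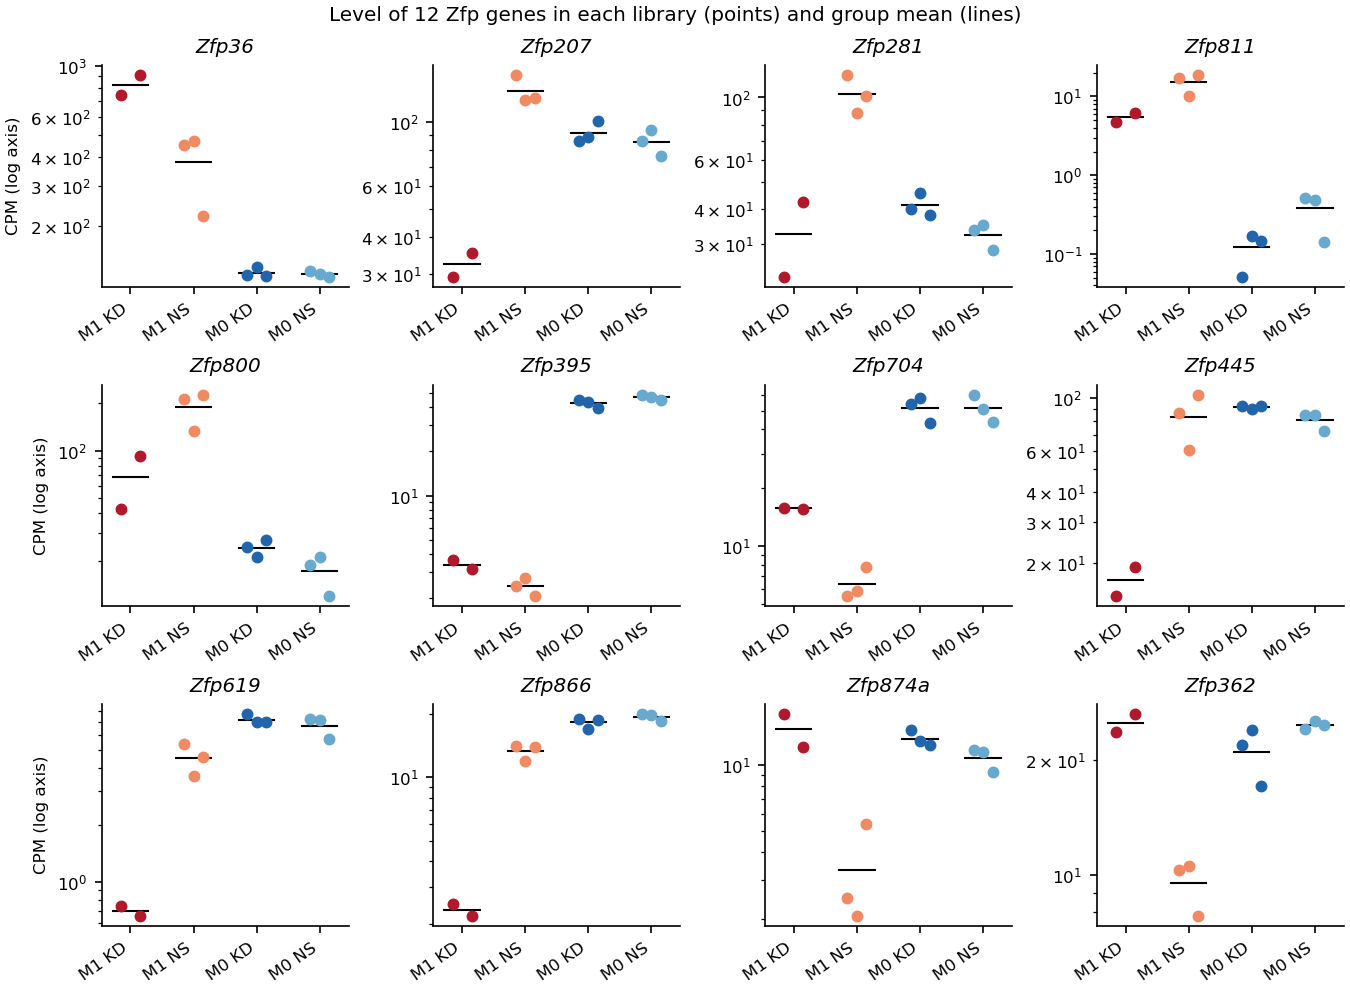
Level in CPM (log axis) of 12 Zfp genes in each library (points) of M1 KD, M1 NS, M0 KD and M0 NS cells, with the group mean as a line. Zfp445, Zfp619, Zfp866 and Zfp207 are lowest in M1 KD, Zfp874a and Zfp362 are lowest in M1 NS, and Zfp395 is above 39 CPM in every M0 library and below 4 CPM in every M1 library.

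Between M0 KD and M0 NS cells no Zfp gene passed, with a smallest adjusted p of 0.261, and none of the 15024 genes did (0% called, edgeR). At an unadjusted p under 0.05 there were 25 Zfp genes, 10 higher and 15 lower in M0 KD, and 1947 genes in all. DESeq2 called 0 Zfp genes and 221 genes in all, and a fit of the M0 KD and M0 NS libraries alone called 9 Zfp genes up and 7 down. The CPM ranges did not overlap for 100 Zfp genes, against 35.1% of all genes. The smallest p-values among higher genes belonged to Zfp40, Zfp758 and Zfp715, 3 KRAB genes with values of 0.80, 0.75 and 0.44. For Zfp758 the levels were 11.6, 10.3 and 10.9 CPM in M0 KD and 6.38, 7.72 and 5.38 CPM in M0 NS libraries. Among lower genes they belonged to Zfp385a, Zfp598 and Zfp787, with values of -0.51, -0.38 and -0.57. For Zfp787 the levels were 15.9, 18.3 and 16.9 CPM in M0 KD and 25.8, 25.4 and 24.8 CPM in M0 NS libraries.

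The small differences in M0 were graded by base composition over all genes. In the lowest GC class 116 of 124 Zfp genes had a value above 0 between M0 KD and M0 NS, beside 3096 of 3679 genes. In the highest GC class (54.9 to 76.3%) 0 of 43 Zfp genes did, beside 704 of 3687 genes. The medians of the Zfp genes over the 4 classes were 0.27, 0.04, -0.15 and -0.30, and those of all genes 0.25, 0.07, -0.09 and -0.24. Of the 126 KRAB genes 99, with a median of 0.20, lay above 0, and 46 of the 114 others, with a median of -0.09. With the length and GC trend removed the medians of both classes were -0.04 and -0.03, and the part of base composition in these differences was not tested.

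The knockdown effect in M1 was set against that in M0 to test where they differ. The difference passed for 81 Zfp genes, 31 with a higher and 50 with a lower effect in M1 (27.3% of all genes called, 13.1% higher and 14.2% lower, and 34.8%, 16.5% and 18.3% of those with at least 1000 counts). With the trend removed it was 35 and 36, with upper-quartile factors 39 and 39, and without M1 NS replicate 4 it was 36 and 44. The most negative differences were those of Zfp329, Zfp619, Zfp709 and Zfp445 at -3.04, -2.79, -2.61 and -2.49 (edgeR adjusted p = 0.000429, 0.000161, 0.000584 and 0.000156). The most positive were those of Zfp874a, Zfp362, Zfp667 and Zfp775 at 1.83, 1.62, 1.53 and 1.49. For Zfp874a, Zfp362 and Zfp775 the edgeR adjusted p was 0.00836, 0.000565 and 0.0249. The value of Zfp667, which passed the limit on the summed count through its M1 KD libraries, is a description, with no test. The call of Zfp775 was lost without M1 KD replicate 5 (adjusted p = 0.185).

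Zfp genes lie in clusters that arose by duplication, and 10 clusters held at least 5 of the 240 genes with gaps of at most 500 kb. The cluster on chromosome 17 from 32765496 to 33631779 (GRCm38) held 13, 12 of them KRAB genes, among them Zfp811, Zfp101 and Zfp414. There 13 of 13 changed between M1 KD and M0 KD, 2 up and 11 down, with a median of -1.18. Between M1 KD and M1 NS it was 10 of 13, 1 up and 9 down, with a median of -0.71. Over all genes 58.3% and 36.8% were called. Both cluster counts include Zfp811, whose selection through its M1 libraries, mostly those of M1 NS, favoured a call. The cluster on chromosome 17 from 21008903 to 23564238 held 17 genes with Zfp160, Zfp760 and Zfp945, and 2 rose and 3 fell between M1 KD and M1 NS (17.6% of all genes up and 19.2% down). In the chromosome 13 cluster from 67121660 to 67827002, with Zfp874a and Zfp273 among its 14 genes, 4 rose and 0 fell between M1 KD and M1 NS, and 1 rose and 5 fell between M1 NS and M0 NS (26.9% of all genes up and 28.6% down). Neighbours therefore did not all move alike. The falls of the chromosome 13 cluster between M1 NS and M0 NS include Zfp273, whose selection through its M0 libraries favoured a call. The remaining clusters are not described here. The clusters and GC classes were set after earlier results were known and have no test.

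Zinc finger genes with other names gave a backdrop. Of 31 of them 12 rose and 8 fell between M1 NS and M0 NS, and 4 rose and 10 fell between M1 KD and M1 NS. Over all genes 55.5% were called in the first comparison and 36.8% in the second. Ikzf1, a haematopoietic regulator, fell by -2.0 between M1 KD and M1 NS (SE 0.18, adjusted p = 1.82e-05), and Zkscan5 rose by 1.21 (SE 0.16, adjusted p = 0.000185). Zc3hav1, the antiviral protein ZAP, rose by 1.66 between M1 NS and M0 NS and by 1.75 between M1 KD and M0 KD (adjusted p = 1.46e-06 and 1.92e-06).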

How the data were processed

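RNA from 11 libraries was sequenced and deposited by the authors as 1 table of raw counts per gene, per the file headers. Per the submitters' processing notes these were made with Trimmomatic 0.36, then STAR 2.5.2b, then featureCounts (Subread 1.5.2), on GRCm38. Neither the strand setting nor the annotation is named in those sources. Groups came from the labels. Counts were fitted over all 11 libraries with edgeR 4.0.16 (R 4.3.3): TMM factors, filterByExpr (at least 10 counts, and 15 in total), a robust quasi-likelihood fit and Benjamini-Hochberg adjustment over 15024 genes, called at an adjusted p under 0.05. M1 was set against M0 within each gapmer, KD against NS within each state, and the knockdown effects of both states against each other, 5 comparisons in all. The fit was tested on simulated counts with 2-fold and 4-fold changes put in. Of the 2-fold changes it recovered 58% between M0 KD and M0 NS, 49% between M1 KD and M1 NS and 55% between M1 NS and M0 NS. Of the 4-fold changes it recovered 82%, 80% and 86% in the same order. Between M0 KD and M0 NS, where no gene was called, true changes of 2-fold or less could thus be missed. The simulation changed only 100 genes at each size, drawn from all genes of the fit. Its shares therefore do not carry over to the Zfp genes in the M1 comparisons, where far more genes were called. Counts carry no molecular identifiers, and depth limits genes of few counts, such as Zfp811 in M0 cells.

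The 240 genes and all lists were chosen with earlier results of these data known. Named genes were list members, the 6 largest called rises and falls per comparison without overlap of libraries, the 3 smallest p-values each way where nothing was called, the highest sums, the neighbours of the limit and 2 partner genes per list and comparison, while further partner genes were picked with their values known. Gene spans, GC content, fingers and KRAB signatures came from GENCODE M21 on GRCm38, where 238 genes matched by symbol and 2 by an older symbol. Alternatives were other scalings and filters, DESeq2 1.42.0, limma 3.58.1 with voom, the compared groups alone, a replicate block, a length and GC trend removed per library, each library left out and other limits on the summed count. The class counts under alternatives were chosen after seeing the data. Same-numbered libraries correlated at -0.11 to 0.14 in their deviations from the group means, so the numbers were not taken as pairs.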

Additional observations from a re-analysis of the deposited data

Results flagged for a closer look

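The effect of the gapmer against MERRICAL differed between M1 and M0 cells for 41 of the 70 named Zfp genes. This is by the test of the difference itself (edgeR, adjusted p under 0.05). Some of the 70 were named for the largest values in this same test, so a high count was built in. Over all genes tested 27.3% were called, and 34.8% of those with a summed count of at least 1000. Zfp667 and Zfp14 passed that sum through their M1 KD libraries, and Zfp273, Zfp608 and Zfp760 through their M0 libraries. The values of these genes are therefore a description. For 18 of the 41 the call was lost when 1 library was left out, and for 23 it was kept without each library in turn. Values are the log2 fold change of M1 KD over M1 NS minus that of M0 KD over M0 NS. The effect was more negative in M1 for 24 genes. The lowest values belonged to Zfp329 (-3.04), Zfp619 (-2.79), Zfp709 (-2.61), Zfp445 (-2.49), Zfp760 (-2.48), Zfp866 (-2.41), Zfp160 (-2.41), Zfp207 (-2.09), Zfp281 (-2.01), Zfp800 (-1.98), Zfp715 (-1.96) and Zfp518a (-1.78). Smaller negative values belonged to Zfp809 (-1.36), Zfp830 (-1.13), Zfp945 (-1.09), Zfp608 (-1.08), Zfp326 (-0.94), Zfp318 (-0.83), Zfp518b (-0.81), Zfp451 (-0.75), Zfp217 (-0.72), Zfp687 (-0.72), Zfp263 (-0.66) and Zfp106 (-0.62). The effect was more positive in M1 for 17 genes. The highest values belonged to Zfp874a (1.83), Zfp362 (1.62), Zfp667 (1.53), Zfp775 (1.49), Zfp213 (1.44), Zfp444 (1.42), Zfp949 (1.30), Zfp704 (1.29) and Zfp523 (1.25). Smaller positive values belonged to Zfp821 (1.18), Zfp273 (1.15), Zfp14 (1.13), Zfp36 (1.10), Zfp787 (0.85), Zfp385a (0.71), Zfp592 (0.67) and Zfp395 (0.63). No Zfp gene passed between M0 KD and M0 NS on its own. The M1 KD libraries carry the numbers 5 and 6 and all others 1, 2 and 4, and whether these numbers mark a batch is not given. In M1 the knockdown and such a batch therefore cannot be told apart. The same holds for the state and such a batch between M1 KD and M0 KD.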

How the results depend on the processing

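Scaling by library size alone put the median log2 fold change of the Zfp genes at -0.622 between M1 NS and M0 NS and at -0.988 between M1 KD and M0 KD, and turned the sign of Zfp622 (-0.31), Zfp384 (-0.32) and Zfp592 (-0.037) in the first and of Zfp91 (-0.48), Zfp143 (-0.41), Zfp384 (-0.45) and Zfp746 (-0.48) in the second. With the length and GC trend removed the median was -0.162 between M1 KD and M0 KD and -0.00049 for the difference of effects, and the sign turned for Zfp191 (0.023), Zfp148 (0.42), Zfp292 (0.34), Zfp644 (0.33) and Zfp40 (0.64) between M1 KD and M0 KD, for Zfp148 (0.31) between M1 KD and M1 NS, and for Zfp148 (0.44) and Zfp945 (0.011) in the difference. At an adjusted p under 0.01 the calls numbered 67 between M1 NS and M0 NS, 57 between M1 KD and M1 NS and 37 in the difference. With a summed count of at least 3000 they were 66 between M1 NS and M0 NS and 94 between M1 KD and M0 KD. Fits of the compared groups alone called 52 between M1 KD and M1 NS and 16 between M0 KD and M0 NS, where no filter on low counts called 3. With genes of a summed count of at least 500 the share of counts in M0 KD was 0.522%. Leaving out each library gave 81 to 135 calls between M1 NS and M0 NS, 125 to 159 between M1 KD and M0 KD, 0 to 0 between M0 KD and M0 NS, 60 to 109 between M1 KD and M1 NS, and 58 to 107 in the difference, with medians there of -0.346 to -0.048. The lone M1 KD library was then assumed to vary like the other groups. With the replicate block over 9 libraries the M1 NS against M0 NS count was 100 Zfp genes, and 149 with the length and GC trend also removed; between M0 KD and M0 NS both gave 0. No paired analysis was possible for M1 KD because it shares no number with the other groups. The cause of these changes was not tested.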
